A study of Mus musculus with 6 samples.

Results

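The genes described here encode the factors that start, extend and end protein synthesis on cytosolic ribosomes, together with the kinases and repressors that set their activity. They were chosen by name: the gene symbols that begin with Eif1 to Eif6, Eef1 or Eef2 and hold no further punctuation, with Etf1 and Gspt1. The deposited table holds 10989 genes, of which 61 matched, and all 61 were tested. RNA was compared between endothelial cells sorted from mouse brain (Positive) and the dissociated suspension before sorting (Input), with 3 libraries of each fraction under the replicate numbers 1222, 1223 and 1227. All 6 libraries come from mice labelled Tie2-cre+; NuTRAP+, and their titles carry the word WT; age and sex are not given in the labels. The promoter of Tie2, a receptor of endothelial cells, drives Cre, and Cre switches on NuTRAP, a reporter that puts EGFP on ribosomes. Tie2-driven Cre is also known to act in some blood-derived cells, and the gate kept cells that were positive for EGFP and CD31 and negative for CD11b. What a replicate number stands for is not labelled. The series text calls the replicates biological, and the p-values describe the spread among these 6 libraries. Input also holds endothelial cells, so every fold change sets sorted cells against a mixture that contains them. In such bulk samples fewer cells of a type and less RNA per cell cannot be told apart.

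Translation begins when the factor eIF2, loaded with GTP and the initiator tRNA, joins the small ribosomal subunit with eIF1, eIF1A, eIF3 and eIF5. The eIF4F complex, made of the cap-binding protein eIF4E, the scaffold eIF4G and the helicase eIF4A, brings the mRNA, and the 4E-BP proteins repress it by holding eIF4E. Stress kinases phosphorylate the alpha subunit of eIF2 and thereby block eIF2B, which recharges eIF2 with GTP; eEF1A then delivers aminoacyl-tRNA, eEF2 moves the ribosome along, and eRF1 and eRF3 end the chain. In the brain several factors exist as paralogs, and the elongation factor gene Eef1a2 is known as the form of neurons and muscle.

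Levels are in CPM, which are estimated counts scaled to a common library size after TMM correction, and are given in the order 1222, 1223 and 1227. Fold changes are edgeR's log2 values of Positive over Input with their standard error (SE), and a gene was called where the Benjamini-Hochberg adjusted p over all 10989 genes was below 0.05. Gene coordinates are those of the deposited table, whose build is mm10 by the submitters' notes. Summed estimated counts ran from 4772866 to 52283556 per library, and both libraries of 1223 were the shallowest. The deposited table keeps genes with a raw value of at least 50 in every library of at least 1 fraction. That minimum was met in both fractions by 59 of the 61 factor genes, in Positive alone by Eif4ebp1 and in Input alone by Eef1a2. Marker genes followed the gate in part. All 5 endothelial markers rose, and 3 of 4 neuronal, 5 of 5 astrocytic and 5 of 5 oligodendrocytic markers fell. The 5 of 5 microglial, 3 of 3 choroid plexus and 3 of 3 ependymal markers fell as well. However, 4 of 5 perivascular macrophage and 5 of 5 pericyte markers rose, although the gate was for CD31-positive and CD11b-negative cells. The macrophage markers summed to between 272 and 1902 CPM in Positive and between 219.9 and 297 CPM in Input, with the highest sum in Positive 1222. The pericyte markers summed to between 1113 and 1771 CPM in Positive and between 575 and 690.4 CPM in Input. What these cells add to the changes of the factor genes was not tested.

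Most translation factor genes did not pass the test between sorted endothelial cells and the suspension, and those that passed the test were mostly higher in the sorted cells. Of the 61 genes 20 (32.8%) rose, 3 (4.92%) fell and 38 did not pass. Over all 10989 genes 26.1% rose and 29.4% fell (55.5% in either direction), and over the 8509 genes that met the deposited minimum in both fractions 30.4% rose and 19.9% fell. The share of factor genes that fell was below that of all genes. The median log2 fold change of the 61 genes was 0.25, against 0.03 over all genes and 0.16 over those that met the minimum in both fractions. The standard deviation of the 61 log2 fold changes was 0.72. A change of more than 2-fold was seen in 2 of the 61, Eif2ak2 (higher) and Eef1a2 (lower), and in 3898 of all genes.

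All 3 Positive libraries lay above all 3 Input libraries in 24 of the 61 genes (39.3%) and below them in 6 (9.84%), where 31.8% and 32.6% of all genes did so. Among the 8509 genes that met the minimum in both fractions the shares were 36.7% and 23.2%. The median difference within a replicate number was 0.28, 0.26 and 0.32 on the log2 scale in 1222, 1223 and 1227. Over all genes it was 0.00, 0.05 and 0.02, and over those that met the minimum in both fractions 0.12, 0.20 and 0.15. Deviations of libraries with the same number went together, and with the number as a block 27 of the 61 (44.3%) rose and 4 (6.56%) fell, where 30.0% and 31.7% of all genes did. Of the 8509 genes that met the minimum in both fractions, 3001 rose and 1901 fell with the block. The count of higher genes was 10 without both libraries of 1227. Of the 23 genes called, 11 kept their call under each of the 14 alternative settings: Eif1a, Eif5b, Eif2b5, Eif2ak2, Eif3a, Eif3f, Eif4g1, Eif4b, Eif1ad, Eif5a2 and Eef1a2.

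**Figure D1:**
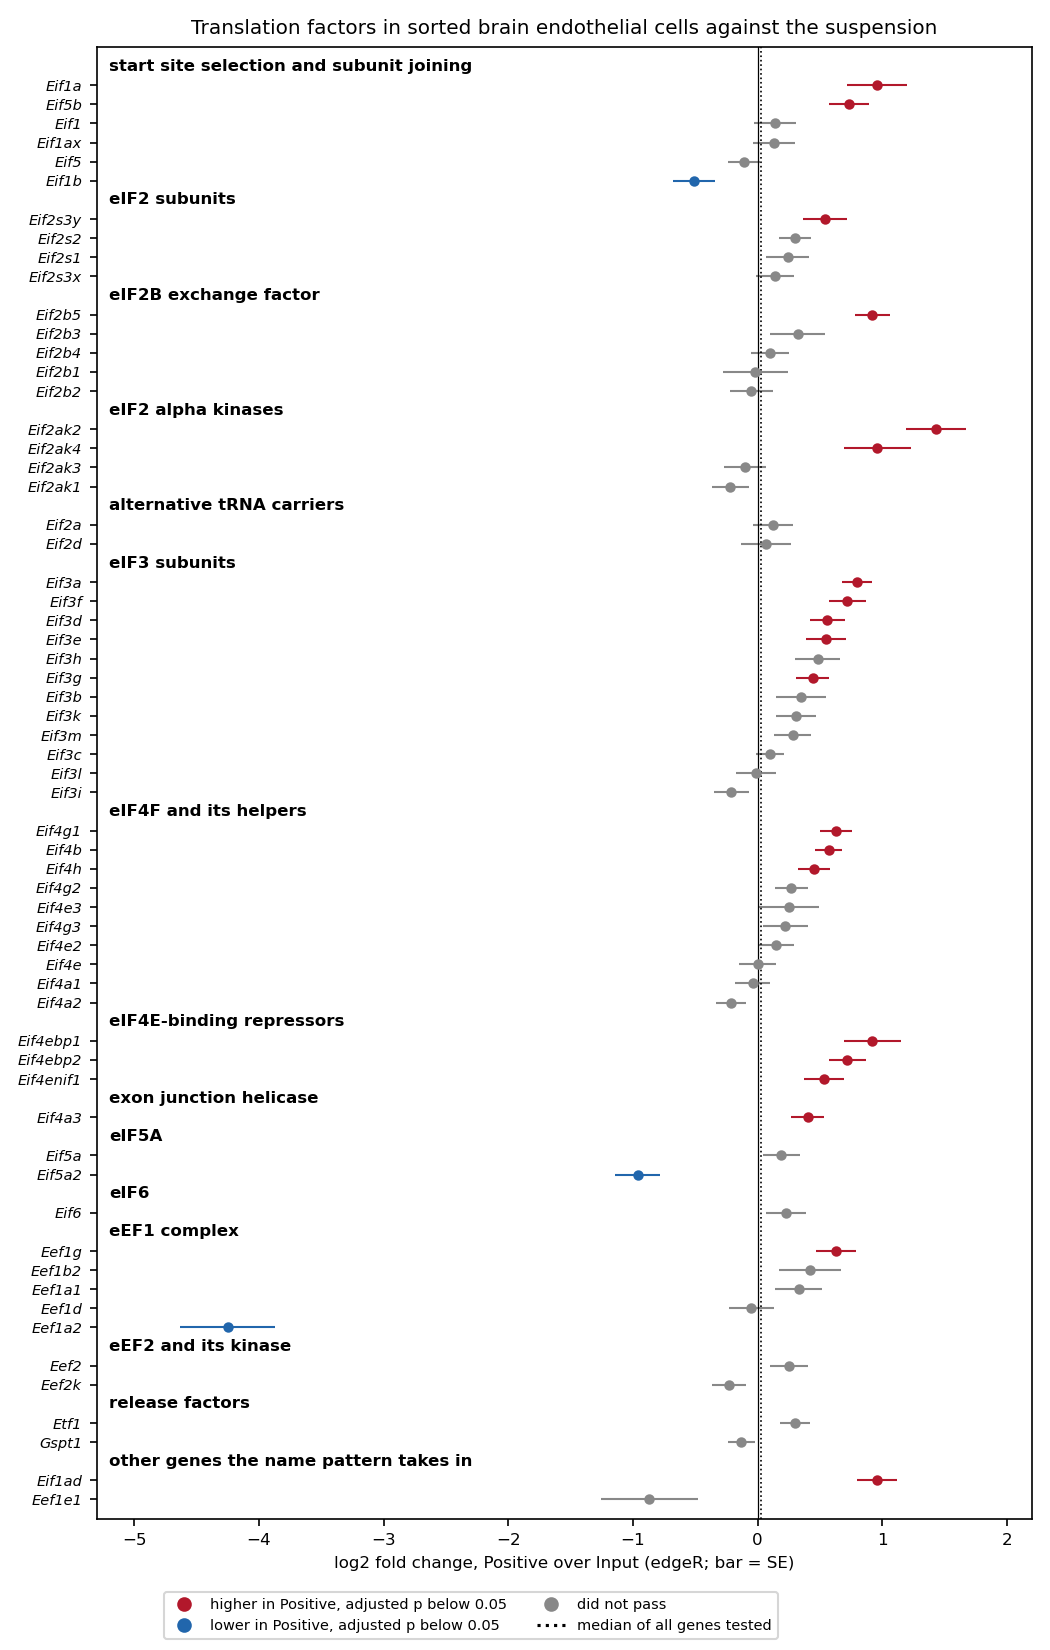
Log2 fold change of Positive over Input for the 61 factor genes (points; bars are the SE of edgeR's estimate), grouped by class from top to bottom; red genes are higher and blue genes lower in Positive at an adjusted p below 0.05, grey genes did not pass, and the dotted line is the median of all genes tested (0.03). Most points lie within 1 log2 unit of 0, and Eef1a2 stands apart at -4.25.

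Among the elongation factors, the neuronal and muscle form of eEF1A fell and a subunit of its exchange complex rose. Eef1a2 (chromosome 2, 181147692 to 181157015) had 3.12, 9.98 and 6.62 CPM in Positive, against 94.2, 115 and 134 CPM in Input (log2 fold change -4.25 ± 0.38, adjusted p = 2.59e-05). The groups lie far apart, and the sorted cells kept a small part of the level of the suspension. Eef1a2 met the deposited minimum through Input alone, which favours a fall. The 4 neuronal markers tested (Tubb3, Snap25, Syt1 and Snhg11), of which 3 fell, had sums of 23.2, 49.2 and 31.1 CPM in Positive against 283.5, 392 and 276 CPM in Input; none was at 0 in a Positive library. The part of neuronal RNA in this fall was not tested.

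The general form, Eef1a1 (chromosome 9, 78478454 to 78481724), the most abundant of the factor genes per length, had 3438, 4848 and 4216 CPM in Positive, against 2831, 3957 and 3166 CPM in Input. The groups overlap, since Input 1223 stood above Positive 1222, and the gene did not pass (log2 0.33 ± 0.19, adjusted p = 0.17). Within each number the Positive library was the higher, by log2 0.28, 0.29 and 0.41, and with the number as a block the gene rose (adjusted p = 0.0244). It also passed without Input 1223 (log2 0.47, adjusted p = 0.0495). Eef1a1 has many processed copies in the genome, so reads could be split between them by the counting.

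Eef1b2, Eef1d and Eef1g encode subunits of the complex that recharges eEF1A with GTP. Eef1g (chromosome 19, 8967041 to 8978180) rose, with 352, 449.9 and 437 CPM in Positive, against 223, 298 and 279 CPM in Input (log2 fold change 0.63 ± 0.16, adjusted p = 0.00931), and its groups did not overlap. It did not pass without both libraries of 1227 (log2 0.62). Eef1b2 had 196, 362 and 276 CPM in Positive, against 155, 242 and 228 CPM in Input and did not pass (log2 0.42 ± 0.25, adjusted p = 0.187). Its 3 Positive libraries spread widely and overlap with Input, but each stood above the Input library of its number, and with the block the gene rose (adjusted p = 0.0141). Eef1d averaged 123 ± 24.03 CPM in Positive and 127 ± 19.6 CPM in Input (SD, n = 3 each; log2 -0.05 ± 0.18, adjusted p = 0.834). Of the 5 genes of this complex 1 rose and 1 fell, where 26.1% of all genes rose and 29.4% fell. With the block 3 rose, where 30.0% of all genes did. Without Input 1223 2 rose, and without both libraries of 1227 none did.

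Eef2, which encodes the translocase eEF2 (chromosome 10, 81176631 to 81182509), had 2101, 2496 and 2315 CPM in Positive, against 1718, 2136 and 1947 CPM in Input and did not pass (log2 0.25 ± 0.15, adjusted p = 0.173). Each Positive library was above the Input library of its number, and the block gave an adjusted p of 0.05, just above the threshold. Eef2k, whose product phosphorylates and slows eEF2, had 69.6, 73.4 and 74.9 CPM in Positive, against 93.8, 73.9 and 86.6 CPM in Input (log2 -0.23 ± 0.14, adjusted p = 0.185). The groups overlap, since Input 1223 stood below Positive 1227.

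The genes of eIF5A, a factor that helps ribosomes through difficult peptide bonds and carries the modified residue hypusine, are a pair of paralogs of which 1 fell. Eif5a2 (chromosome 3, 28781311 to 28798846), the less abundant form, had 13.9, 11.1 and 13.98 CPM in Positive, against 26.02, 25.4 and 25.2 CPM in Input (log2 fold change -0.96 ± 0.18, adjusted p = 0.00225). The Input libraries were nearly equal and all lay well above the Positive libraries. Eif5a had 250.3, 312 and 326 CPM in Positive, against 224, 285 and 268 CPM in Input and did not pass (log2 0.19 ± 0.15, adjusted p = 0.314). Of the release factors, Etf1 (eRF1, which reads stop codons) had 124, 107 and 125 CPM in Positive, against 98.8, 98.9 and 92.9 CPM in Input (log2 0.30 ± 0.12, adjusted p = 0.0691), and it passed with the block (adjusted p = 0.0481). It also passed without both libraries of 1223 (log2 0.37). Gspt1, the gene of the GTPase eRF3, had 146, 147 and 146 CPM in Positive, against 164, 152 and 163 CPM in Input (log2 -0.13 ± 0.11, adjusted p = 0.357). The Positive libraries of Etf1 all lay above Input and those of Gspt1 all below it, both by small margins.

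**Figure D2:**
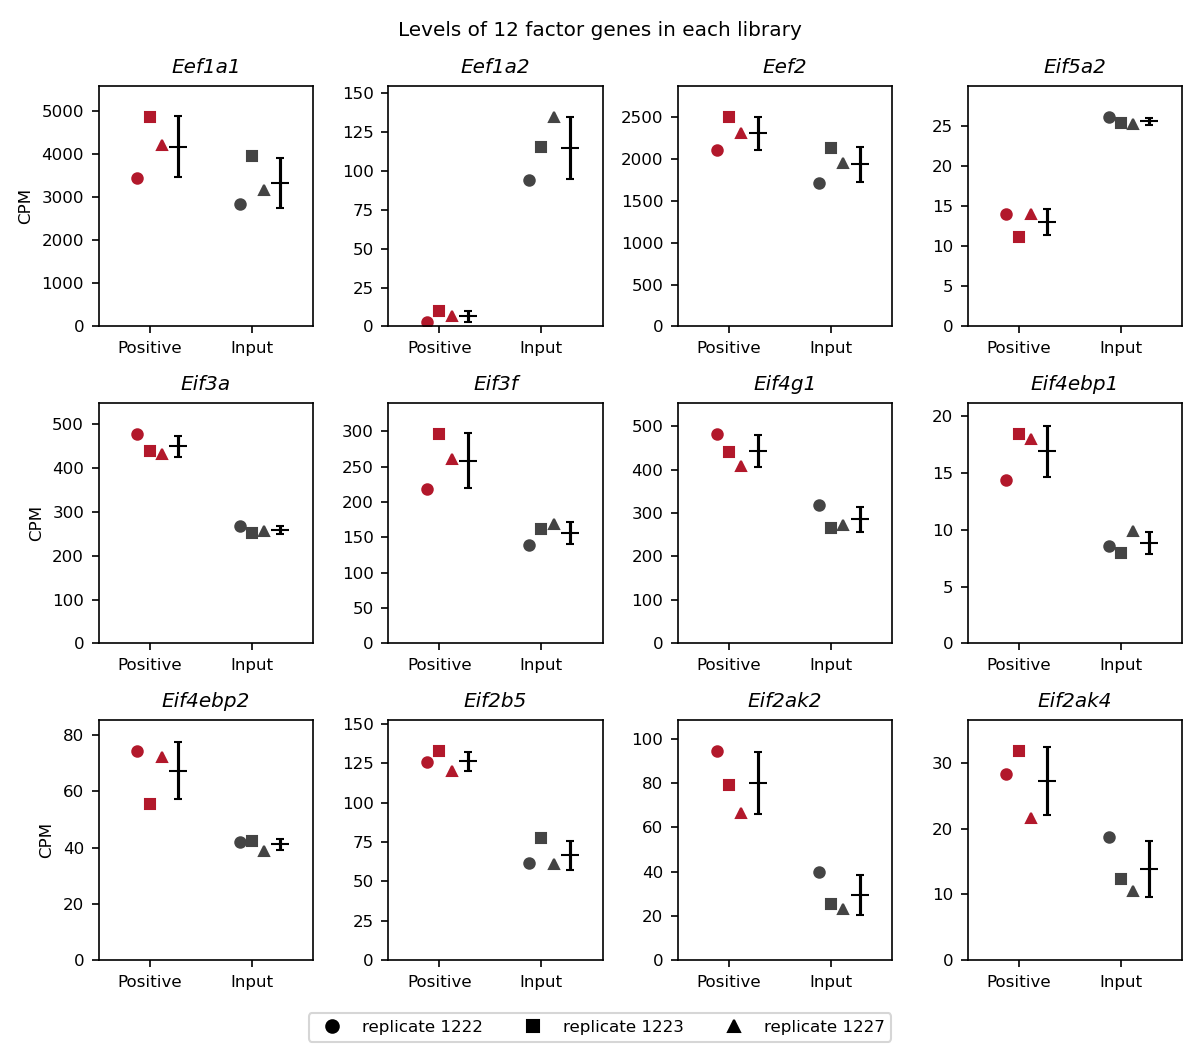
Levels in CPM (vertical axes, starting at 0) of 12 factor genes in the Positive libraries (red, left) and the Input libraries (grey, right); symbols mark the replicate number and the black bars the mean ± SD of 3 libraries. Eef1a2 and Eif5a2 lie lower in Positive without overlap, Eef1a1 and Eef2 overlap between the fractions, and the other 8 genes lie higher in Positive without overlap.

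The factors that choose the start codon and join the subunits did not move together. Eif1a, an autosomal gene of eIF1A, which holds the scanning ribosome open, rose, with 41.3, 49 and 43.7 CPM in Positive, against 26.6, 13.98 and 26.6 CPM in Input (log2 fold change 0.96 ± 0.24, adjusted p = 0.00912). Input 1223 was lower than the other Input libraries, and all Positive libraries lay above Input. Its X-linked relative Eif1ax averaged 56.4 ± 10.8 CPM in Positive and 51.4 ± 4.22 CPM in Input (SD, n = 3 each; log2 0.13 ± 0.17, adjusted p = 0.542) and did not pass. The proteins of these genes are nearly the same, so the counting could split their reads.

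Eif5b, the GTPase that joins the large subunit (chromosome 1, 37998010 to 38055579), rose as well, with 177, 258 and 182 CPM in Positive, against 125, 126 and 120.5 CPM in Input (log2 fold change 0.73 ± 0.16, adjusted p = 0.00511); Positive 1223 was the highest. By the GENCODE annotation 15.9% of its exon length lies opposite exons of Rev1, and whether counting used strand is not given in the sources used here. Eif1, which guards start codon choice, had 362, 425 and 376 CPM in Positive, against 293, 433 and 330.3 CPM in Input and did not pass (log2 0.14 ± 0.17, adjusted p = 0.508). Its paralog Eif1b fell, with 40.3, 58.98 and 47.8 CPM in Positive, against 61.98, 78.1 and 68.8 CPM in Input (log2 fold change -0.51 ± 0.17, adjusted p = 0.0345). All Positive libraries of Eif1b lay below Input, but the call was lost without Positive 1227 (log2 -0.50), Positive 1222 (-0.39), Input 1227 (-0.52) or Input 1223 (-0.43), and by limma (-0.45). The call was also lost without both libraries of 1222 (-0.48) or of 1227 (-0.50). Eif5, the gene of the GTPase activator of eIF2, averaged 187 ± 14.8 CPM in Positive and 201 ± 16.6 CPM in Input (SD, n = 3 each) and did not pass (log2 -0.11 ± 0.13, adjusted p = 0.503).

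Of the 4 genes of eIF2, which carries the initiator tRNA, 1 rose (25.0%, against 26.1% of all genes). Eif2s3y, the Y-linked gene of its gamma subunit (chromosome Y, 1010612 to 1028598), had 28.2, 38.8 and 30.5 CPM in Positive, against 22.9, 23.2 and 20.7 CPM in Input (log2 fold change 0.54 ± 0.18, adjusted p = 0.0311); it was counted in all 6 libraries. Its groups did not overlap, but the call was lost without Positive 1227 (log2 0.58), Positive 1223 (0.40), Input 1227 (0.49) or Input 1222 (0.56), and without scaling beyond library size (0.38), so that no gene of eIF2 then passed. The call was also lost without both libraries of 1222 (0.65), 1223 (0.42) or 1227 (0.53). The X-linked copy Eif2s3x had 109, 117 and 114 CPM in Positive, against 108, 83.3 and 116 CPM in Input (log2 0.14 ± 0.15, adjusted p = 0.45), and reads of the 2 gamma genes could be split by the counting. The alpha subunit gene Eif2s1, whose product the stress kinases phosphorylate, had 49.3, 68.3 and 66.6 CPM in Positive, against 46.9, 57.1 and 51.9 CPM in Input (log2 0.24 ± 0.17, adjusted p = 0.256). Eif2s2, the beta subunit gene, had 85.7, 92.02 and 94.2 CPM in Positive, against 75.5, 65.1 and 78.9 CPM in Input and did not pass (log2 0.30 ± 0.13, adjusted p = 0.077), although all its Positive libraries lay above Input. With the block Eif2s2 stayed at the threshold (adjusted p = 0.05).

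Of the 5 subunits of eIF2B 1 rose, the catalytic subunit, and none fell, where 26.1% of all genes rose and 29.4% fell. Eif2b5 (chromosome 16, 20498817 to 20509325), which encodes the epsilon subunit that carries the exchange activity and is known for mutations in vanishing white matter disease, had 126, 132 and 120.1 CPM in Positive, against 61.6, 77.3 and 61.2 CPM in Input (log2 fold change 0.92 ± 0.14, adjusted p = 0.000564). Every Positive library lay far above every Input library. The other subunits had log2 fold changes of 0.32 (Eif2b3), 0.10 (Eif2b4), -0.02 (Eif2b1) and -0.05 (Eif2b2), with adjusted p values between 0.247 and 0.965. Eif2b3 had 22.7, 17.7 and 19.7 CPM in Positive, against 15.1, 19.98 and 14.01 CPM in Input, and Eif2b4 had 37.4, 30.8 and 37.6 CPM in Positive, against 32.6, 32.96 and 33.4 CPM in Input. The groups overlap in both: Input 1223 of Eif2b3 stood above Positive 1223 and 1227, and all 3 Input libraries of Eif2b4 stood above Positive 1223. Without both libraries of 1223 Eif2b3 passed (log2 0.54), which made 2 higher subunits.

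Of the 4 kinases of eIF2 alpha 2 rose and none fell, where 26.1% of all genes rose and 29.4% fell. Eif2ak2 (chromosome 17, 78852550 to 78882572), the gene of PKR, which senses double-stranded RNA and is itself induced by interferon, had 94.3, 78.9 and 66.5 CPM in Positive, against 39.9, 25.4 and 23.02 CPM in Input (log2 fold change 1.43 ± 0.24, adjusted p = 0.000983). It had the largest rise of the 61 genes, and its Positive libraries all lay above Input; in both fractions 1222 was the highest and 1227 the lowest. Eif2ak4, the gene of GCN2, which senses uncharged tRNA, had 28.3, 31.7 and 21.7 CPM in Positive, against 18.6, 12.4 and 10.5 CPM in Input (log2 fold change 0.96 ± 0.27, adjusted p = 0.0149). The groups did not overlap, but the gene did not pass without Input 1227 (log2 0.78), where 1 kinase was left, nor without both libraries of 1223 (0.78) or of 1227 (0.93). Eif2ak1, the gene of the haem-regulated kinase HRI, had 64.1, 48.3 and 53.6 CPM in Positive, against 67.4, 58.1 and 67.9 CPM in Input (log2 -0.22 ± 0.15, adjusted p = 0.254). Eif2ak3, the gene of PERK at the endoplasmic reticulum, averaged 42.4 ± 7.04 CPM in Positive and 45.6 ± 4.35 CPM in Input (SD, n = 3 each; log2 -0.10 ± 0.17, adjusted p = 0.624).

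Because Eif2ak2 had the largest rise, its promoter window was searched on both strands for the core of the interferon-stimulated response element, spelled GAAANNGAAAC. The windows are those of RefSeq on GRCm38.p6, from 250 bases before to 50 after each annotated start, and 49 of the 61 genes have one. The element was in 2 of these 49 genes (4.08%), against 0.995% of the tested genes with a window. Eif2ak2, the gene that prompted the search, is among them, so these shares do not test for an excess. Both are shown, with the match in capitals, for the gene that rose and for the one that did not pass (Eif2s1, log2 0.24):
Eif2ak2 (chr17:78882535-78882564, minus strand): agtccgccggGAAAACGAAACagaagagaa
Eif2s1 (chr12:78861850-78861879, plus strand): cctggagcaaGAAACAGAAACttacctctc
The match of Eif2ak2 begins at base 19 after the start and that of Eif2s1 at 212 bases before it. A match is a description of the letters and not evidence of a bound site.

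The large scaffold eIF3, which binds the small subunit and bridges it to eIF4G, moved upward in part of its subunits. Of 12 subunit genes 5 (41.7%) rose (Eif3a, Eif3f, Eif3d, Eif3e and Eif3g) and none fell, where 26.1% of all genes rose and 29.4% fell. The median log2 fold change of the 12 was 0.39, with a range of -0.21 to 0.80. With the replicate block 8 rose. The count was 3 without Positive 1227, without Input 1222, without both libraries of 1227, and without scaling beyond library size.

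Eif3a (chromosome 19, 60761116 to 60790693), the gene of the largest core subunit, had 476, 439 and 432 CPM in Positive, against 268, 251 and 257 CPM in Input (log2 fold change 0.80 ± 0.12, adjusted p = 0.000459). Both groups were tight and far apart. Eif3f (chromosome 7, 108934415 to 108941942) had 219, 296 and 262 CPM in Positive, against 139, 162 and 168 CPM in Input (log2 fold change 0.72 ± 0.15, adjusted p = 0.00343), and Eif3d, whose product can itself bind the cap of some mRNAs, had 149, 144 and 149 CPM in Positive, against 96.3, 87.3 and 115 CPM in Input (log2 fold change 0.56 ± 0.14, adjusted p = 0.00749). Neither overlapped between the fractions. By the GENCODE annotation 32.9% of the exon length of Eif3d lies opposite another annotated gene, Gm17638. Eif3d did not pass without both libraries of 1222 (log2 0.52).

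Eif3e rose, with means of 135 ± 23.1 CPM in Positive and 92.5 ± 10.3 CPM in Input (log2 0.55 ± 0.16, adjusted p = 0.0203) and Eif3g likewise, with means of 113 ± 12.7 CPM in Positive and 83.4 ± 2.02 CPM in Input (log2 0.44 ± 0.13, adjusted p = 0.0191; SD, n = 3 each). These calls were less stable: Eif3e did not pass without Positive 1227 (log2 0.52), Positive 1223 (0.43) or Input 1222 (0.46), nor without scaling (0.39). Nor did it pass without both libraries of 1223 (0.46) or of 1227 (0.59). Eif3g did not pass without Positive 1227 (0.36), Positive 1222 (0.44), Input 1227 (0.46) or Input 1222 (0.43), nor without scaling (0.28) or by limma (0.50). Nor did it pass without both libraries of 1222 (0.42) or of 1227 (0.38). Eif3h stood at the threshold, at 230.3 ± 42.4 CPM in Positive and 165 ± 28.1 CPM in Input (log2 0.48 ± 0.18, adjusted p = 0.053). It passed with the block (adjusted p = 0.00328), without Positive 1222 (log2 0.62) and without Input 1223 (0.57). Eif3k and Eif3m also passed with the block (adjusted p = 0.0306 and adjusted p = 0.0494), at log2 0.31 and 0.28.

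Of the other subunits, Eif3b, a core subunit gene whose product has an RNA recognition motif, had 251, 274 and 271 CPM in Positive, against 163, 278 and 185 CPM in Input and did not pass (log2 0.35 ± 0.20, adjusted p = 0.165). Input 1223 was as high as the Positive libraries, and without it the gene passed (log2 0.61, adjusted p = 0.00471). The log2 fold changes of Eif3c, Eif3l and Eif3i were 0.10, -0.01 and -0.21, with adjusted p values of 0.489, 0.966 and 0.236. Eif3i, a subunit built of beta-propeller repeats, had log2 differences of -0.08, -0.27 and -0.26 within 1222, 1223 and 1227.

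**Figure D3:**
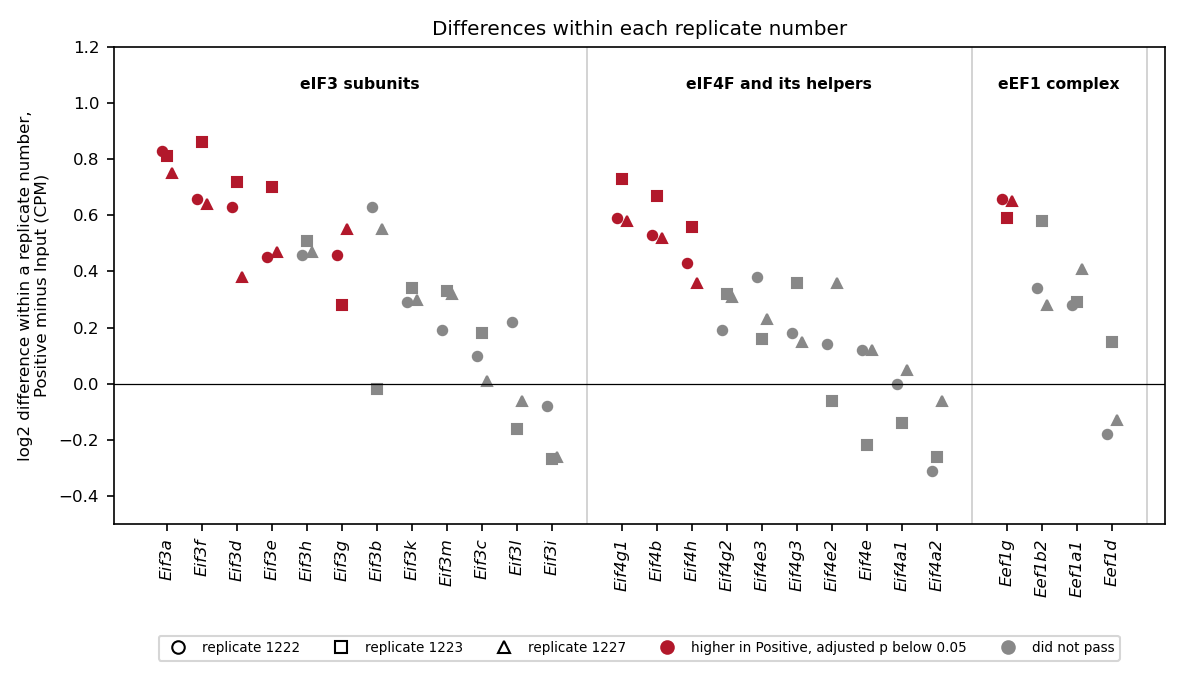
Log2 difference in CPM between the Positive and the Input library of the same replicate number (vertical axis) for the genes of eIF3, of eIF4F with its helpers and of the eEF1 complex without Eef1a2; symbols mark the number and red marks genes higher in Positive at an adjusted p below 0.05. Eif3a differed by 0.83, 0.81 and 0.75 in 1222, 1223 and 1227, whereas Eif3b differed by 0.63, -0.02 and 0.55.

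Messenger RNAs of elongation factors and of several eIF3 subunits are known to begin with a terminal oligopyrimidine (TOP) tract, through which mTORC1 controls their translation. Each RefSeq window was searched on the gene's strand for a C followed by at least 6 bases that are each C or T, beginning within 5 bases of the annotated start. This was met by 8 of the 49 genes with a window (16.3%), against 8.76% of the tested genes. The median log2 fold change was 0.44 in these 8 and 0.19 in the other 41, a comparison chosen after the values were known. It sets genes with a match against genes without one, and the latter can include genes whose mRNA has the tract. Windows of 30 bases around the start are shown for 3 genes with a match that rose and for 3 that did not pass, with the match in capitals:
Eif3f (chr7:108934400-108934429, plus strand): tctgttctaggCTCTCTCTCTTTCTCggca
Eif2b5 (chr16:20498802-20498831, plus strand): ccttcctctttCTCTCCCTgcaactacacc
Eif2s3y (chrY:1010580-1010609, plus strand): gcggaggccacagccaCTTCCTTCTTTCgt
Eef1a1 (chr9:78481710-78481739, minus strand): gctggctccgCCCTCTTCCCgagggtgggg
Eif2s3x (chrX:94212637-94212666, minus strand): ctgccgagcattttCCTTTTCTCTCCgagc
Eif3l (chr15:79075208-79075237, plus strand): gcgcggagttCTTCTTCCgctctctcccac
Their log2 fold changes were 0.72 (Eif3f), 0.92 (Eif2b5), 0.54 (Eif2s3y), 0.33 (Eef1a1), 0.14 (Eif2s3x) and -0.01 (Eif3l), so genes with a match did and did not pass. In Eif2b5, Eif2s3x and Eif3l the bases just before the match are also C or T, so the capitals are part of a longer run. An annotated start can differ from the start used in these cells, so a gene without a match is not shown to lack the tract. Nor is a match shown to be the tract of the mRNA: that of Eef1a1 begins 5 bases before the annotated start.

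In the cap-binding machinery the scaffold gene Eif4g1 and the helicase helpers Eif4b and Eif4h rose, and the other scaffold genes, the cap-binding genes and the helicases did not pass. Of 10 genes 3 (30.0%) rose and none fell, with a median log2 fold change of 0.24. The share that rose was near that of all genes (26.1%) and of those that met the minimum in both fractions (30.4%). Without scaling beyond library size Eif4a2 fell (log2 -0.36). Eif4g1 (chromosome 16, 20672749 to 20692883), the main scaffold gene, had 481, 441 and 407 CPM in Positive, against 319, 266 and 273 CPM in Input (log2 fold change 0.63 ± 0.13, adjusted p = 0.00376). Eif4b, whose product stimulates the helicase, had 366, 388 and 359.6 CPM in Positive, against 253, 244 and 251 CPM in Input (log2 fold change 0.57 ± 0.11, adjusted p = 0.00247). Both lay above Input in every Positive library. Eif4h, the gene of a related helper, had 476, 532 and 533 CPM in Positive, against 352, 362 and 414 CPM in Input (log2 fold change 0.45 ± 0.13, adjusted p = 0.0162). It did not pass without Positive 1227 (log2 0.42), Positive 1223 (0.42) or Input 1222 (0.40), nor without scaling beyond library size (0.30), where 2 of the 10 genes rose. Nor did it pass without both libraries of 1222 (0.45), 1223 (0.39) or 1227 (0.50).

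Eif4g2, the gene of the scaffold-like protein DAP5, which lacks the site for eIF4E, had 1221, 1143 and 1139 CPM in Positive, against 1067, 916 and 920.0 CPM in Input (log2 0.27 ± 0.13, adjusted p = 0.108). All Positive libraries lay above Input, and the gene passed with the block (adjusted p = 0.0389). Eif4g3, a second scaffold gene, had 214, 159.6 and 168 CPM in Positive, against 188, 125 and 151 CPM in Input (log2 0.22 ± 0.18, adjusted p = 0.338). The cap-binding gene Eif4e had 84.2, 90.02 and 87.2 CPM in Positive, against 77.6, 105 and 79.96 CPM in Input, with means that were nearly equal (log2 0.00 ± 0.15, adjusted p = 0.999). Its relatives did not pass either: Eif4e2 had 61.4, 63.4 and 68.6 CPM in Positive, against 55.8, 66.1 and 53.5 CPM in Input (log2 0.15 ± 0.14, adjusted p = 0.398), and Eif4e3 had 23.3, 30.6 and 20.9 CPM in Positive, against 17.9, 27.4 and 17.8 CPM in Input (log2 0.25 ± 0.24, adjusted p = 0.401). For the helicases, Eif4a1 had 228, 258 and 236 CPM in Positive, against 227, 285 and 228 CPM in Input (log2 -0.04 ± 0.14, adjusted p = 0.84). Its paralog Eif4a2, known for its high level in brain, had 191, 205 and 214 CPM in Positive, against 236, 245 and 222 CPM in Input (log2 -0.21 ± 0.12, adjusted p = 0.162); its Positive libraries lay below Input without overlap.

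The 3 genes of proteins that bind and restrain eIF4E all rose, where 26.1% of all genes did, and the median of their log2 fold changes was 0.72. Eif4ebp1 (chromosome 8, 27260327 to 27275656), the best known target of mTORC1 among the 4E-BPs, had 14.3, 18.4 and 18 CPM in Positive, against 8.60, 7.99 and 9.91 CPM in Input (log2 fold change 0.92 ± 0.23, adjusted p = 0.00876). It is a low gene that met the deposited minimum through Positive alone, which favours a rise. Eif4ebp2, the main 4E-BP of the brain, had 74.2, 55.6 and 72.1 CPM in Positive, against 42.2, 42.5 and 38.8 CPM in Input (log2 fold change 0.72 ± 0.15, adjusted p = 0.00391). Eif4enif1, whose product carries eIF4E into the nucleus and into RNA granules, had 58.6, 59.4 and 51.7 CPM in Positive, against 44.3, 40.95 and 32.3 CPM in Input (log2 fold change 0.53 ± 0.16, adjusted p = 0.0217). In all 3 genes the groups did not overlap. Eif4enif1 did not pass without Positive 1223 (log2 0.50), Positive 1222 (0.50) or Input 1227 (0.40), nor without scaling beyond library size (0.37). Nor did it pass without both libraries of 1222 (0.60) or of 1223 (0.52). Without both libraries of 1227 none of the 3 passed (Eif4ebp1 0.97, Eif4ebp2 0.62, Eif4enif1 0.47).

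The remaining genes have other roles. Eif4a3, a helicase of the exon junction complex, had 125, 130.2 and 147 CPM in Positive, against 91.04, 106 and 107 CPM in Input (log2 fold change 0.40 ± 0.13, adjusted p = 0.0289). It did not pass without Positive 1227 (log2 0.33), Positive 1223 (0.43), Input 1227 (0.45) or Input 1222 (0.33), nor without scaling beyond library size (0.25) or by limma on the deposited log2 values (0.48). Nor did it pass without both libraries of 1222 (0.38), 1223 (0.45) or 1227 (0.37). Eif6, whose product keeps the large subunit from joining early, had 79.2, 77.8 and 86.5 CPM in Positive, against 58.03, 83.3 and 67.05 CPM in Input (log2 0.23 ± 0.16, adjusted p = 0.245), and it passed without Input 1223 (log2 0.38). Eif2a and Eif2d, which can bring tRNA to the ribosome without eIF2, did not pass: Eif2a had 45.5, 62.5 and 50.9 CPM in Positive, against 47.3, 45.95 and 51.7 CPM in Input (log2 0.12 ± 0.16, adjusted p = 0.536), and Eif2d had 16.5, 21.1 and 23.7 CPM in Positive, against 20.6, 19.6 and 18 CPM in Input (log2 0.07 ± 0.20, adjusted p = 0.784). The name pattern also takes in 2 genes that are not translation factors in the strict sense. Eif1ad rose, with 44.7, 56.5 and 52.8 CPM in Positive, against 24.9, 25.2 and 28.9 CPM in Input (log2 fold change 0.96 ± 0.16, adjusted p = 0.000881); 16.7% of its exon length lies opposite exons of Banf1. Eef1e1, the gene of a small protein of the multi-synthetase complex, had 3.71, 11.1 and 8.15 CPM in Positive, against 11.7, 13.6 and 15.2 CPM in Input and did not pass (log2 -0.87 ± 0.39, adjusted p = 0.0921). Its Positive libraries were low and uneven, and it fell with the block (adjusted p = 0.0401) and without Positive 1223 (log2 -1.19).

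Ratios of paralogs within a library do not depend on scaling, and 8 pairs were compared by the log2 ratio of their estimated counts. With 3 libraries against 3 the smallest p that an exact two-sided permutation test allows is 0.1, so no pair could pass 0.05. In 4 pairs the ratios of Positive and Input did not overlap, with an exact permutation p = 0.1 each (0.2 adjusted over the 8 pairs). The Eef1a1 to Eef1a2 log2 ratio was 10.11, 8.93 and 9.32 in Positive, against 4.91, 5.10 and 4.56 in Input, with means of 9.45 and 4.86. The Eif5a to Eif5a2 log2 ratio was 4.17, 4.81 and 4.54 in Positive, against 3.10, 3.49 and 3.41 in Input, a difference of 1.17. In both pairs the balance lay further towards the general form in the sorted cells.

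The Eif1 to Eif1b log2 ratio was 3.17, 2.85 and 2.98 in Positive, against 2.24, 2.47 and 2.26 in Input, a difference of 0.67. The Eif4g1 to Eif4g3 log2 ratio was 1.17, 1.46 and 1.28 in Positive, against 0.76, 1.09 and 0.85 in Input, a difference of 0.40. The ratios overlapped for Eif4a1 to Eif4a2 (difference 0.18), Eif4e to Eif4e2 (-0.14), Eif4e to Eif4e3 (-0.25) and Eif4ebp1 to Eif4ebp2 (0.24), with exact permutation p values of 0.2, 0.2, 0.2 and 0.5. The sign of the difference was the same within each of the 3 numbers in 7 of the 8 pairs, all but Eif4ebp1 to Eif4ebp2.

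**Figure D4:**
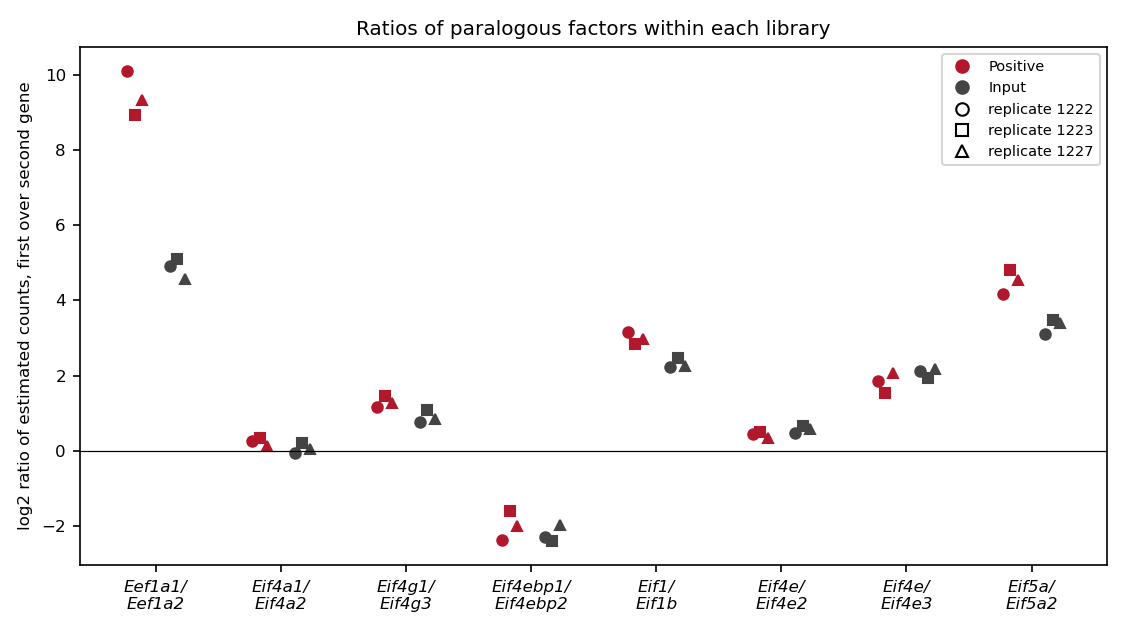
Log2 ratio of the estimated counts of 2 paralogs in each library (vertical axis; 0 means equal counts, not corrected for gene length), Positive in red to the left and Input in grey to the right of each pair, with symbols for the replicate number. The ratio of Eef1a1 to Eef1a2 lies between 8.93 and 10.11 in Positive and between 4.56 and 5.10 in Input, and the Eif4ebp1 to Eif4ebp2 ratios of the fractions overlap.

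Levels of different genes were compared per kilobase of exon, with exon lengths from GENCODE (release M21, basic set), which need not be the annotation the authors counted on; 60 of the 61 genes had a length. Eef1a1 stood at 2323 ± 394 CPM per kilobase in Positive and 1849 ± 322 in Input (SD, n = 3 each), and Eef2 came next at 746 ± 64.1 CPM per kilobase in Positive and 626 ± 67.8 in Input. Eif1 was in the third place at 293 ± 25.2 CPM per kilobase in Positive and 266 ± 54.8 in Input, followed by Eef1g at 222 ± 28.5 CPM per kilobase in Positive and 143 ± 21.03 in Input and Eif4h at 188 ± 12.01 CPM per kilobase in Positive and 138 ± 12.2 in Input. In Positive the first and second places lie apart beyond their SD, as do Eef2 and Eif1, whereas Eef1g and Eif4h lie closer together than the sum of their SDs. At the other end were Eif5a2 at 2.59 ± 0.33 CPM per kilobase in Positive and 5.08 ± 0.09 in Input, Eef1e1 at 3.00 ± 1.46 CPM per kilobase in Positive and 5.29 ± 0.69 in Input and Eef1a2 at 3.15 ± 1.65 CPM per kilobase in Positive and 54.98 ± 9.61 in Input. Eef1a2 was among the lowest of the factor genes in the sorted cells and at a middle level in the suspension. The 12 eIF3 subunits, which are parts of the same complex, stood between 56.3 (Eif3i) and 177.8 (Eif3h) CPM per kilobase in Positive and between 50.45 (Eif3a) and 127.3 (Eif3h) in Input.

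Genes that act with the factors were counted from 6 lists chosen by role, where 26.1% of all genes rose and 29.4% fell. The median log2 fold change, 0.03 over all genes, was 0.18 for control by mTORC1, -0.09 for the stress response, 0.21 for recycling, -0.10 for the tRNA synthetases and 0.36 for the mitochondrial factors. It was 0.12 for the helpers of poly(A) binding and scanning, and -0.04 without scaling beyond library size. Among 14 tested genes of mTORC1 and of the MNK kinases, which act on eIF4E and its repressors, 4 rose and 1 fell. Mknk2, a kinase of eIF4E, rose, with means of 172 ± 21.4 CPM in Positive and 68.5 ± 10.8 CPM in Input (log2 1.32 ± 0.16, adjusted p = 0.000167), and Rps6kb1, the kinase of ribosomal protein S6, likewise, with means of 53.98 ± 4.15 CPM in Positive and 27.6 ± 5.99 CPM in Input (log2 0.96 ± 0.18, adjusted p = 0.00219; SD, n = 3 each). The related kinase gene Mknk1 fell, with means of 39.9 ± 5.29 CPM in Positive and 62.7 ± 9.07 CPM in Input (log2 -0.65 ± 0.17, adjusted p = 0.00932). Without both libraries of 1227, 2 rose and none fell, with Mknk1 at log2 -0.60. Without Input 1223 2 fell, as they did without both libraries of 1223 and by DESeq2, and 3 fell without scaling beyond library size.

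Among 10 tested genes of the integrated stress response, which follows phosphorylation of eIF2 alpha, 1 rose and 2 fell. Asns, the asparagine synthetase gene, rose, with means of 26.6 ± 9.36 CPM in Positive and 9.75 ± 1.81 CPM in Input (log2 1.45 ± 0.29, adjusted p = 0.0029). Ddit3, the gene of CHOP, fell, with means of 9.60 ± 0.51 CPM in Positive and 19.8 ± 1.61 CPM in Input (log2 -1.04 ± 0.20, adjusted p = 0.00231), and Impact, the gene of an inhibitor of GCN2 known from neurons, fell, with means of 39.1 ± 3.85 CPM in Positive and 59.8 ± 6.45 CPM in Input (log2 -0.62 ± 0.15, adjusted p = 0.00735; SD, n = 3 each). Ddit3 met the deposited minimum through Input alone, which favours a fall. The transcription factor gene Atf4, whose mRNA is translated when eIF2 alpha is phosphorylated, did not pass (log2 -0.15 ± 0.22, adjusted p = 0.584). Without both libraries of 1227 neither fall passed (Ddit3 -1.01, Impact -0.49).

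Of 14 tested genes of ribosome recycling, rescue and factor modification 4 rose (Abce1, Abcf1, Pelo and Gtpbp2) and 2 fell. Gspt2, a retrogene relative of Gspt1, fell, with means of 2.67 ± 1.81 CPM in Positive and 10.6 ± 2.86 CPM in Input (log2 -1.84 ± 0.52, adjusted p = 0.0161), and Dnajc24, which takes part in making the diphthamide residue of eEF2, fell, with means of 10.8 ± 1.45 CPM in Positive and 21.01 ± 2.10 CPM in Input (log2 -0.99 ± 0.21, adjusted p = 0.0038; SD, n = 3 each). Gspt2 had 0.67 CPM in Positive 1223 and met the deposited minimum through Input alone, which favours a fall. Gtpbp2, a factor that rescues stalled ribosomes, had a log2 fold change of 0.65. It did not pass without Positive 1222 (0.59) or Input 1227 (0.60), nor without scaling (0.48). Nor did it pass without both libraries of 1223 (0.56) or of 1227 (0.61). The count of higher genes was 2 without Positive 1227, 1 without Positive 1222 or Input 1227, 2 without both libraries of 1222, 0 without both of 1227, and 1 without scaling. Neither fall passed without both libraries of 1222 (Gspt2 -2.12, Dnajc24 -0.88), and Dnajc24 did not pass without both of 1227 (-0.90).

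Of 13 tested helpers of poly(A) binding and scanning 2 rose and 1 fell. The helicase genes Dhx29 (log2 0.66 ± 0.15, adjusted p = 0.00552) and Ddx3x (log2 0.51 ± 0.17, adjusted p = 0.0296) rose, and Paip2b (log2 -0.43 ± 0.14, adjusted p = 0.0291), whose product holds the poly(A)-binding protein, fell. With the replicate block 4 rose. Ddx3x did not pass without Positive 1223 (log2 0.45), Positive 1222 (0.48), Input 1227 (0.38) or Input 1222 (0.50), nor without scaling (0.35) or without both libraries of 1222 (0.47). Paip2b did not pass without Positive 1223 (-0.42), Positive 1222 (-0.34), Input 1227 (-0.40) or Input 1222 (-0.44), nor by limma (-0.36). Nor did it pass without both libraries of 1222 (-0.36) or of 1223 (-0.44). Without Input 1223 4 rose and 2 fell. Without both libraries of 1227 none passed.

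Of 22 aminoacyl-tRNA synthetase genes and their scaffolds, which charge tRNAs in the cytosol, 7 rose and 3 fell. Wars, the tryptophan enzyme, which interferon is known to induce, rose, with means of 149.7 ± 14.7 CPM in Positive and 92.8 ± 3.19 CPM in Input (log2 0.69 ± 0.13, adjusted p = 0.00164). Dars, the aspartate enzyme, fell, with means of 60.4 ± 10.1 CPM in Positive and 105 ± 9.93 CPM in Input (log2 -0.81 ± 0.16, adjusted p = 0.00249), and Yars, the tyrosine enzyme, likewise, with means of 50.9 ± 4.76 CPM in Positive and 87.3 ± 8.11 CPM in Input (log2 -0.77 ± 0.14, adjusted p = 0.0016; SD, n = 3 each). With the block 6 fell, without both libraries of 1227 2 rose, and without scaling 8 fell. Of 7 tested mitochondrial translation factors 3 rose and 1 fell: Gfm1 (log2 0.41 ± 0.15, adjusted p = 0.0497), Mrrf (log2 0.70 ± 0.21, adjusted p = 0.0213) and Mtrf1l (log2 0.80 ± 0.30, adjusted p = 0.0479) rose, and Gfm2 fell (log2 -0.81 ± 0.22, adjusted p = 0.0122). Mtrf1l met the deposited minimum through Positive alone, which favours a rise, and it did not pass with the block (adjusted p = 0.0636).

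The counts of mitochondrial factors changed with single libraries and with the scaling. Mtrf1l passed in none of the fits without a library except that without Positive 1227, with log2 values of 0.54 (without Positive 1223), 0.83 (Positive 1222), 0.80 (Input 1227), 0.74 (Input 1223) and 0.87 (Input 1222). Mrrf did not pass without Positive 1227 (0.67), Positive 1223 (0.57), Input 1227 (0.71) or Input 1222 (0.61), nor without both libraries of 1227 (0.67). The count of 3 higher genes was 1 without Positive 1227 or Positive 1222 and 0 without Positive 1223, Input 1227 or Input 1222. Without scaling beyond library size none rose and 2 fell, with Mtrf1l at 0.64 and Mrrf at 0.55. Gfm2 did not pass without both libraries of 1222 (-0.78) or of 1227 (-0.70).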

How the data were processed

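The deposited table gives per gene an estimated count (raw columns, 95.3% of them not whole numbers at a tolerance of 1e-06) and a log2 normalised value, both made by the authors. Per the file headers, a gene entered the table if every library of 1 or both fractions reached a raw value of 50. Per the submitters' processing notes the build was mm10 and the tools include DESeq; no source used here gives the aligner, the counter or the use of strand. Coordinates of genes are those of the table, 1-based.

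Estimated counts were rounded and tested with edgeR 4.0.16 in R 4.3.3 (TMM factors from 0.94 to 1.082, filterByExpr with a minimum count of 10, which removed 0 genes, quasi-likelihood test with fraction as the only term, Benjamini-Hochberg adjustment over 10989 genes). The step was tested on simulated data. At an absolute log2 fold of 1 it recovered 73% of 100 changed genes, and at 2 it recovered 100% of 100. It made 13 false calls in a run over 10989 genes. Smaller changes were not simulated, so their recovery is unknown. DESeq2 1.42.0, limma 3.58.1 on the authors' deposited log2 values, other scaling, a replicate block and left-out libraries served as alternatives. Library depth ran over an 11.0-fold range, and low genes of the 1223 libraries carry the most counting error.

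Pairing by replicate number was examined through each library's deviation from its fraction's mean, gene by gene: Positive and Input of the same number correlated at 0.45 (1222), 0.23 (1223) and 0.30 (1227), each above any correlation with another number (-0.05, -0.16 and 0.02 at most).

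The members, lists and classes were chosen with earlier results of these data known. By the rule for named genes, values per library are given in each class for the 3 largest changes, the most abundant gene and both genes of each pair; from each pathway list the 3 called genes with the largest change are named, and other names were chosen after their values were seen.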

Additional observations from a re-analysis of the deposited data

How the results depend on the processing

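The count of factor genes that rose was 20 by edgeR and 10 to 24 when libraries were left out, singly or as both libraries of a number; the count that fell was 3 and stayed between 2 and 4 in every alternative run. The lowest of these, 10, was the fit without both libraries of 1227, which has 4 libraries. By DESeq2 21 rose and 3 fell, by limma on the deposited log2 values 18 and 2, with no filter 20 and 3, and with no scaling beyond library size 14 and 4. The median log2 fold change of 0.25 moved to 0.10 with no scaling, where the median of all genes moved from 0.03 to -0.13, and to 0.33 by limma; with libraries left out it ran from 0.20 to 0.31. The replicate block changed 8 calls of factor genes, each given beside its gene, and no other call of a factor gene.

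Sign changes were seen only in genes that did not pass in either fit. With no scaling the log2 fold changes were -0.01 (Eif4e2), -0.08 (Eif2d), -0.03 (Eif2a), -0.15 (Eif4e), -0.05 (Eif2b4), -0.06 (Eif3c), -0.01 (Eif1), -0.02 (Eif2s3x) and -0.02 (Eif1ax). By DESeq2 Eif4e was at -0.01. By limma they were 0.09 (Eif2b1), 0.04 (Eif4a1), 0.02 (Eif2b2), 0.02 (Eef1d) and 0.07 (Eif3l), and with the replicate block 0.04 (Eif2b1) and 0.00 (Eif3l). With libraries left out the ranges that crossed 0 were -0.11 to 0.26 for Eif2d, -0.08 to 0.14 for Eif4e, -0.23 to 0.02 for Eif2ak3, -0.12 to 0.13 for Eif3l, -0.04 to 0.22 for Eif2a, -0.24 to 0.30 for Eif2b1, -0.13 to 0.06 for Eif2b2, -0.16 to 0.11 for Eef1d, -0.09 to 0.08 for Eif4a1 and -0.01 to 0.24 for Eif2s3x. The cause of these changes was not tested. Depth limits the low genes most, such as Eef1a2, Eef1e1 and Gspt2 in Positive 1223.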
